A study of Caenorhabditis elegans with 4 samples.

Results

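The Sec61 translocon and the translocon-associated protein (TRAP) complex were followed through 6 of the 21895 genes of a count table from whole *Caenorhabditis elegans*: *sec-61.A* and *sec-61.B*, and *trap-1*, *trap-2*, *trap-3* and *trap-4*. The members were chosen by name, with their difference between treated and solvent worms already known from these data, so their fold changes and adjusted p are given as a description and are not evidence for the choice. All 6 were found by their locus tags and all 6 passed the filter on low counts, which kept 19439 genes. The worms were wild-type Bristol N2, the laboratory reference strain, synchronised and shaken for 24 h in M9 buffer. In 2 libraries the buffer held Cyclo(Pro-Tyr) at 0.25 mg/mL, a ring-closed pair of the amino acids proline and tyrosine, and in the other 2 it held the solvent DMSO. As to stage, the labels say embryos or L1 larvae, and nothing states that the libraries of a group came from separate cultures, so p-values measure the spread between these libraries, which may be technical.

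Sec61 is the channel in the membrane of the endoplasmic reticulum (ER) through which ribosomes push new secretory and membrane proteins. Its α subunit, encoded by *sec-61.A*, forms the pore, and the small β and γ subunits, encoded by *sec-61.B* and *sec-61.G*, sit beside it. The TRAP complex binds the channel and the ribosome and helps proteins with weak signal sequences to enter. Its α, β, γ and δ subunits are encoded by *trap-1* to *trap-4*. In growing larvae the epidermis sends large amounts of collagen and other cuticle proteins along this route.

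Library totals ran from 40240674 to 52987317 counts, and the 6 members together held 0.0456% to 0.0695% of them. The lowest count of any member was 824, for *sec-61.B* in Cyclo(Pro-Tyr) replicate 2. Markers of intestine, body wall muscle, neurons, epidermis and germ line were all detected in whole-worm RNA. Of the 4 germ line genes, *pie-1* and *mex-5* had log2 fold changes of Cyclo(Pro-Tyr) over DMSO of -0.76 and -0.69. The other germ line genes, *pgl-1* and *glh-1*, had -0.08 and 0.06, and none of the 4 had an edgeR adjusted p under 0.05. The 4 yolk protein genes, a mark of adult worms, summed to only 6.21 to 7.45 CPM per library, CPM being the count scaled to library size with the TMM method. The 4 sperm genes summed to 1.84 to 2.16 CPM, with *msp-3* at a count of 0 in every library.

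Each of the 6 genes was lower in both Cyclo(Pro-Tyr) libraries than in either DMSO library. Over all tested genes, 30.8% showed that arrangement, so it is common in these data. The log2 fold changes of Cyclo(Pro-Tyr) over DMSO ran from -0.66 for *sec-61.B* to -0.36 for *sec-61.A*, that is from 36.6% to 22.2% lower. Their median was -0.47, where the median of all 19439 genes was -0.0032. By edgeR's quasi-likelihood test with Benjamini-Hochberg adjustment over all genes, 2 of the 6, *sec-61.B* and *trap-3*, had an adjusted p under 0.05, while 2.05% of all genes were called, 1.33% lower and 0.715% higher. In bulk RNA, fewer cells that express a gene and less RNA of it per cell cannot be told apart.

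**Figure D1:**
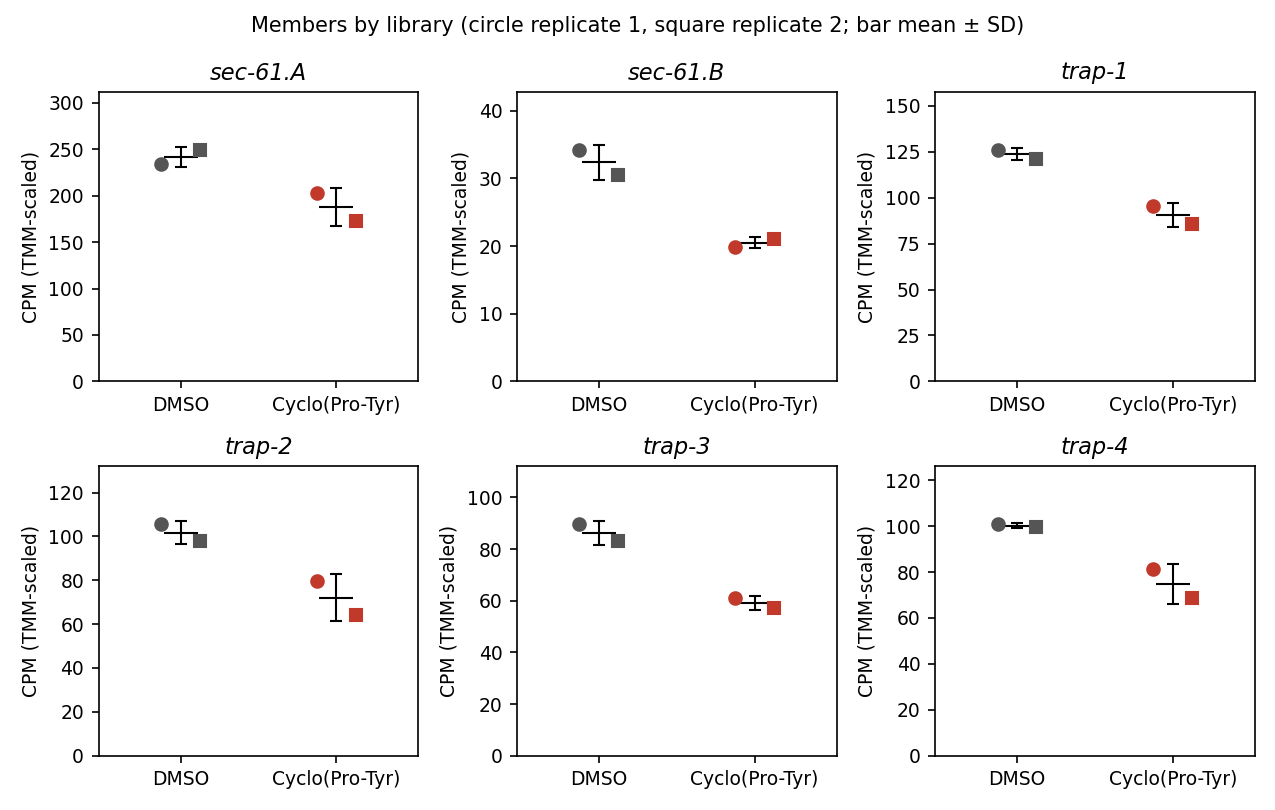
TMM-scaled CPM of the 6 members in each library, with an axis from 0 in each panel (circles, replicate 1; squares, replicate 2; bars, mean ± SD, n = 2 per group). In every panel both Cyclo(Pro-Tyr) points lie below both DMSO points, with the narrowest gap relative to the level in *sec-61.A*.

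The channel-forming gene *sec-61.A* (CELE_Y57G11C.15) gave 234 and 249 CPM in DMSO replicates 1 and 2, and 203 and 173 CPM in Cyclo(Pro-Tyr) replicates 1 and 2. The groups did not overlap, but the treated replicates lay nearly as far from each other as Cyclo(Pro-Tyr) replicate 1 lay from DMSO replicate 1. The group means were 242 ± 10.7 and 188 ± 20.8 CPM (SD, n = 2 for these and the following means). The fitted log2 fold change was -0.36 (SE 0.12), at an adjusted p of 0.114 by edgeR. It had the smallest fold change of the 6, and 19.4% of tested genes had a fold change further below 0.

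The β subunit gene *sec-61.B* (CELE_Y38F2AR.9) gave 34.2 and 30.5 CPM in DMSO replicates 1 and 2, and 19.9 and 21.1 CPM in Cyclo(Pro-Tyr) replicates 1 and 2. Its DMSO replicates were the furthest apart of the 6 genes, by 0.17 on the log2 scale. The groups still stood well apart. The mean went from 32.4 ± 2.63 to 20.5 ± 0.839 CPM, and the fitted log2 fold change was -0.66 (SE 0.12), at an adjusted p of 0.0457 by edgeR. Even so, 9.73% of tested genes had a fold change further below 0. A piRNA gene overlaps its exons on the opposite strand in the annotation. The strand setting of the counting is not given, so part of its count is uncertain.

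The γ subunit gene *sec-61.G* (CELE_F32D8.6), once called *emo-1* for the oocyte defect of its mutants, is outside the set of 6 and stood on a separate list of translocon partners. It gave 94.9 and 87.4 CPM in DMSO replicates 1 and 2, and 70.3 and 69.9 CPM in Cyclo(Pro-Tyr) replicates 1 and 2. The fitted log2 fold change was -0.38 (SE 0.10), at an adjusted p of 0.0768 by edgeR. All 3 genes of the channel were thus lower in both treated libraries, as were 30.8% of all tested genes. For the γ subunit, as for the α subunit, the difference did not pass the threshold.

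Among the TRAP genes, *trap-3* (CELE_Y38F2AR.2), which encodes the γ subunit, gave 89.7 and 83.0 CPM in DMSO replicates 1 and 2, and 60.96 and 57.3 CPM in Cyclo(Pro-Tyr) replicates 1 and 2. Its replicates differed little beside the gap between the groups. The mean went from 86.3 ± 4.74 to 59.1 ± 2.59 CPM, and the fitted log2 fold change was -0.55 (SE 0.11), at an adjusted p of 0.0487 by edgeR. The calls of *trap-3* and *sec-61.B* both stand close to the threshold of 0.05.

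The α subunit gene *trap-1* (CELE_Y71F9AM.6), whose product is studied for its role in the entry of insulin precursors, gave 126 and 121 CPM in DMSO replicates 1 and 2, and 95.2 and 85.9 CPM in Cyclo(Pro-Tyr) replicates 1 and 2. Its fitted log2 fold change was -0.45 (SE 0.11), at an adjusted p of 0.0638 by edgeR. The groups did not overlap and the DMSO replicates were nearly equal.

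The β subunit gene *trap-2* (CELE_T04G9.5) gave 106 and 97.9 CPM in DMSO replicates 1 and 2, and 79.5 and 64.4 CPM in Cyclo(Pro-Tyr) replicates 1 and 2. Its treated replicates were the furthest apart of the 6 genes, by 0.30 on the log2 scale. The fitted log2 fold change was -0.50 (SE 0.13), at an adjusted p of 0.0702 by edgeR.

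The δ subunit gene *trap-4* (CELE_Y56A3A.21) gave 101 and 99.5 CPM in DMSO replicates 1 and 2, and 81.1 and 68.6 CPM in Cyclo(Pro-Tyr) replicates 1 and 2. The DMSO replicates were almost the same, and the spread lay in the treated group. Its fitted log2 fold change was -0.42 (SE 0.12), at an adjusted p of 0.0788 by edgeR.

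Across the 6 genes, Cyclo(Pro-Tyr) replicate 2 was the lowest library for all but *sec-61.B*, which was lowest in Cyclo(Pro-Tyr) replicate 1. The summed CPM of the members was 690.4 and 681 in DMSO replicates 1 and 2, and 539 and 470.5 in Cyclo(Pro-Tyr) replicates 1 and 2. Which members were called depended on single libraries. Without DMSO replicate 1 edgeR called 0 of the 6, with adjusted p of 0.222 for *sec-61.B* and 0.227 for *trap-3*. Without DMSO replicate 2 it also called 0, with 0.339 for both genes. All 6 were called without Cyclo(Pro-Tyr) replicate 1, and the same 2 without Cyclo(Pro-Tyr) replicate 2. In those fits the calls over all genes also grew, to 21.8% of genes (12.2% lower, 9.56% higher) without Cyclo(Pro-Tyr) replicate 1 and to 4.95% (3.38% lower, 1.57% higher) without Cyclo(Pro-Tyr) replicate 2. The fold changes stayed below 0 for all 6 genes in each of these fits, between -0.74 and -0.25.

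**Figure D2:**
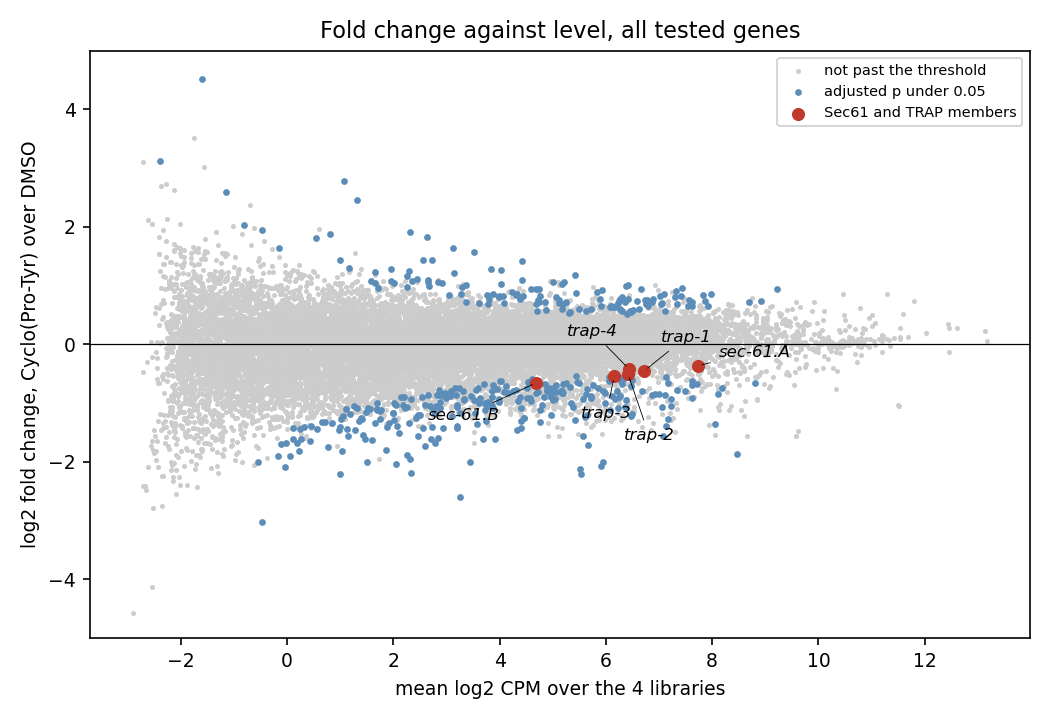
Log2 fold change of Cyclo(Pro-Tyr) over DMSO against the mean log2 CPM of the 4 libraries for the 19439 tested genes (blue, edgeR adjusted p under 0.05; red, the 6 members). The members lie below 0, between -0.66 and -0.36, well short of the largest decreases.

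Levels of different genes can be compared only per length. The count was therefore divided by the summed exon length in kilobases, taken from the Ensembl annotation of WBcel235. In DMSO, *trap-4* stood highest of the 6 at 150.4 ± 1.47 CPM per kilobase. It was followed by *trap-3* at 126 ± 6.91, *trap-2* at 124 ± 6.64, *trap-1* at 117 ± 3.16, *sec-61.A* at 113 ± 5.03 and *sec-61.B* at 74.4 ± 6.05 CPM per kilobase. The neighbours *trap-3* and *trap-2*, *trap-2* and *trap-1*, and *trap-1* and *sec-61.A* in that order differed by no more than the sum of their SDs, while *trap-4* and *sec-61.B* stood apart from the rest. All 6 were abundant, between the 91.7th and the 96.0th percentile of 19411 genes with a length. The γ subunit gene *sec-61.G* was higher than any of them, at 209 ± 12.2 CPM per kilobase.

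In Cyclo(Pro-Tyr), *trap-4* was again the highest of the 6, at 112 ± 13.2 CPM per kilobase, and *sec-61.B* the lowest, at 47.2 ± 1.93. Between them *sec-61.A*, *trap-2*, *trap-3* and *trap-1* lay at 88.0 ± 9.72, 87.8 ± 13.1, 86.2 ± 3.77 and 86.0 ± 6.27 CPM per kilobase, which did not differ beyond their spread. The summed exon lengths of *sec-61.B* and *sec-61.G*, 435 and 437 bases, are the shortest, and a level per length is least certain for short transcripts.

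The 4 TRAP genes kept a nearly even balance in both groups. Of their summed CPM per kilobase, *trap-1* held between 22.5% and 23.5% in the 4 libraries, *trap-2* between 22.7% and 24.4%, *trap-3* between 22.3% and 24.6% and *trap-4* between 28.5% and 30.6%. For every one of these shares except that of *trap-4* the ranges of the groups overlapped. The *trap-4* share was 28.5% and 29.6% in DMSO replicates 1 and 2, and 30.6% and 29.7% in Cyclo(Pro-Tyr) replicates 1 and 2. The sum itself was 531 and 505 CPM per kilobase in DMSO replicates 1 and 2, and 398 and 347 in Cyclo(Pro-Tyr) replicates 1 and 2.

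Within the channel the balance was less even. The share of *sec-61.G* was 53.6% and 51.7% in DMSO replicates 1 and 2, and 53.3% and 55.2% in Cyclo(Pro-Tyr) replicates 1 and 2. That of *sec-61.B* was 19.4% and 18.1% in DMSO, and 15.2% and 16.8% in Cyclo(Pro-Tyr), without overlap. The ratio of *sec-61.B* to *sec-61.G* per length was 0.356 ± 0.00816 in DMSO and 0.294 ± 0.0130 in Cyclo(Pro-Tyr), so the β gene was lower relative to the γ gene in both treated libraries. The ratio of *sec-61.A* to *sec-61.G* was 0.544 ± 0.0560 in DMSO and 0.548 ± 0.0587 in Cyclo(Pro-Tyr), a difference far inside the spread. That of *sec-61.A* to *sec-61.B* was 1.393 and 1.665 in DMSO replicates 1 and 2, and 2.071 and 1.672 in Cyclo(Pro-Tyr) replicates 1 and 2. Relative to the α gene, the β gene was thus nearly equal in DMSO replicate 2 and Cyclo(Pro-Tyr) replicate 2. These ratios come from the contrast by which the members were known and were not tested.

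**Figure D3:**
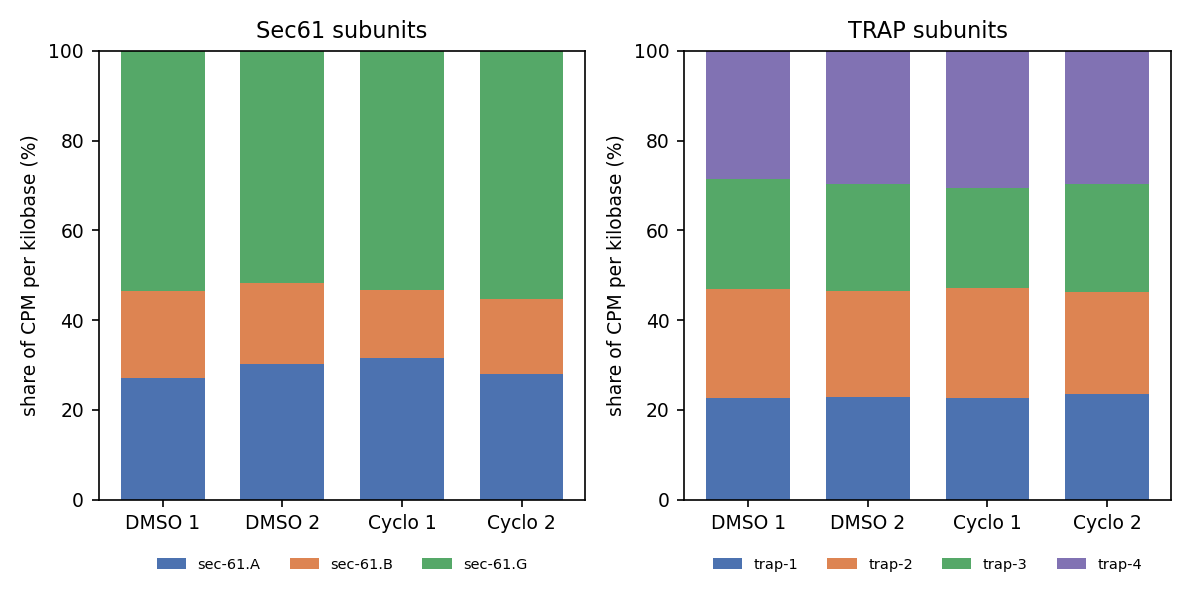
Share of each subunit gene in the summed CPM per kilobase of its complex, in percent, for each of the 4 libraries (left, Sec61; right, TRAP). The TRAP shares are nearly level across libraries, while the *sec-61.B* band is thinner in the 2 Cyclo(Pro-Tyr) libraries, at 15.2% and 16.8% against 19.4% and 18.1%.

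The called members, *sec-61.B* and *trap-3*, are direct neighbours among the protein-coding genes of the RefSeq table of WBcel235, on opposite strands and facing away from each other, with no shared exon. The gene after *trap-3* is *eri-5*, known for its part in the small RNA pathway of the ERI complex. It gave 6.81 and 6.84 CPM in DMSO replicates 1 and 2, and 4.99 and 4.30 CPM in Cyclo(Pro-Tyr) replicates 1 and 2. Its fitted log2 fold change was -0.55, at an adjusted p of 0.0890 by edgeR. On the other side of *sec-61.B*, Y38F2AR.3 had a log2 fold change of -0.15 (edgeR adjusted p 0.398). The other 4 members stand next to no member. Their neighbours had log2 fold changes from -0.30, for *ile-2* beside *trap-2*, to 0.05, for the ribosomal protein gene *rps-18* beside *sec-61.A*, and none was called. The neighbours were looked at after the members' values were known.

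Other steps of protein entry into the ER were described through 8 lists with 59 tested genes. Of these, 45 had a log2 fold change below 0 and 14 above, with a median of -0.18, while 50.3% of all tested genes lay below 0. Only *tfg-1* was called, against 1.33% of all genes called lower. At an unadjusted p under 0.05 by edgeR, 24 were lower and 2 higher, where 14.3% of all genes were lower at that level. Without Cyclo(Pro-Tyr) replicate 1 edgeR called 15 of the 59 lower and 0 higher, where it called 12.2% of all genes lower in that fit. Without Cyclo(Pro-Tyr) replicate 2 it called 2 lower, where 3.38% of all genes were lower, and without either DMSO replicate it called 0.

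Of the 4 partners nearest the channel 3 lay below 0 and 0 were called. Besides *sec-61.G*, the list held *tram-1*, for a membrane protein that helps nascent chains into the bilayer, and *dnj-29*, the worm Sec63. Their log2 fold changes were -0.16 and -0.17 (edgeR adjusted p 0.340 and 0.366). The gene of Sec62, *sec-62*, had means of 101 ± 0.260 CPM with DMSO and 101 ± 2.66 CPM with Cyclo(Pro-Tyr), and its log2 fold change was 0.0026. The signal recognition particle and its receptor bring ribosomes to the channel. On that list 5 of 6 genes lay below 0 and 0 were called, with a median of -0.06. Its subunit gene *srpa-72* had a log2 fold change of -0.17, and the largest difference was that of F37F2.2, at -0.25 (edgeR adjusted p 0.253). F38A1.8 had -0.07, and it overlaps a gene on the opposite strand.

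Of the 10 tested genes of the enzymes that act on chains as they emerge, 10 had a log2 fold change below 0 and 0 were called. Signal peptidase cuts off the signal sequence. Its 4 tested genes had a median of -0.31 and were all lower in both treated libraries, where 30.8% of all genes were. The largest differences were -0.41 for *spcs-1* and -0.39 for the catalytic subunit gene *sec-11* (edgeR adjusted p 0.0749 and 0.0760). The values of *spcs-2* and *spcs-3* were -0.22 and -0.17. Both *sec-11* and *spcs-2* overlap a gene on the opposite strand. Oligosaccharyltransferase attaches glycans to the entering chain and binds the same ribosome-bound channel. Its 6 tested genes had a median of -0.33 and a range of -0.40 to -0.26. Of them 5 were lower in both treated libraries, beside the same 30.8% of all genes. The *dad-1* gene went from 65.9 ± 0.630 to 50.0 ± 0.704 CPM (fitted log2 fold change -0.40, adjusted p 0.0675 by edgeR). ZK686.3 and *ostb-1* had log2 fold changes of -0.33 each (edgeR adjusted p 0.108 and 0.111). The gene of the catalytic subunit, *stt-3*, had -0.26 and its groups overlapped.

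The ER membrane protein complex inserts membrane proteins beside Sec61, and 4 of its 5 tested genes lay below 0, with a median of -0.13. The *emc-6* gene went from 20.4 ± 0.411 to 14.8 ± 0.0124 CPM (fitted log2 fold change -0.46, adjusted p 0.0680 by edgeR), and it shares exon sequence with *mrpl-1* on the same strand, which leaves its count uncertain. The *emc-1*, *emc-5* and *emc-3* genes had -0.17, -0.13 and 0.04 (log2). Overlap with another annotated gene also leaves the counts of *emc-3*, *emc-5*, *pdi-2*, *sec-23* and *sel-9* uncertain. Of 18 genes of ER chaperones and the unfolded protein response, 14 lay below 0 and 4 above, with a median of -0.33 and 0 calls. The BiP gene *hsp-4*, the disulphide isomerase genes *pdi-6* and *pdi-2*, and *sel-11*, for a ubiquitin ligase of ER-associated degradation, had log2 fold changes of -0.64, -0.64, -0.70 and -0.00099.

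Later in the route, 4 of 9 genes of the COPII coat and ER exit lay below 0 and 5 above, with a median of 0.04. The *tfg-1* gene, for a protein of ER exit sites, fell from 22.9 ± 3.58 to 5.60 ± 3.25 CPM (fitted log2 fold change -2.004, adjusted p 0.0416 by edgeR). Its call was lost without DMSO replicate 1 (log2 fold change -2.16, adjusted p 0.219) and without DMSO replicate 2 (-1.84, 0.342). It was kept when Cyclo(Pro-Tyr) replicate 1 was left out (-2.79, 1.39e-16) and when replicate 2 of that group was (-1.53, 6.70e-08). The coat genes *sec-24.1* and *sec-23* had log2 fold changes of -0.48 and -0.37 (edgeR adjusted p 0.0938 and 0.155), and *sec-12*, for the exchange factor that starts the coat, had 0.04. Of the 7 p24 cargo receptor genes 5 lay below 0, with a median of -0.18 and 0 calls. The log2 fold changes were -0.38 for *tmed-1*, -0.27 for *sel-9*, -0.27 for *tmed-10* and 0.06 for *tmed-12*.

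**Figure D4:**
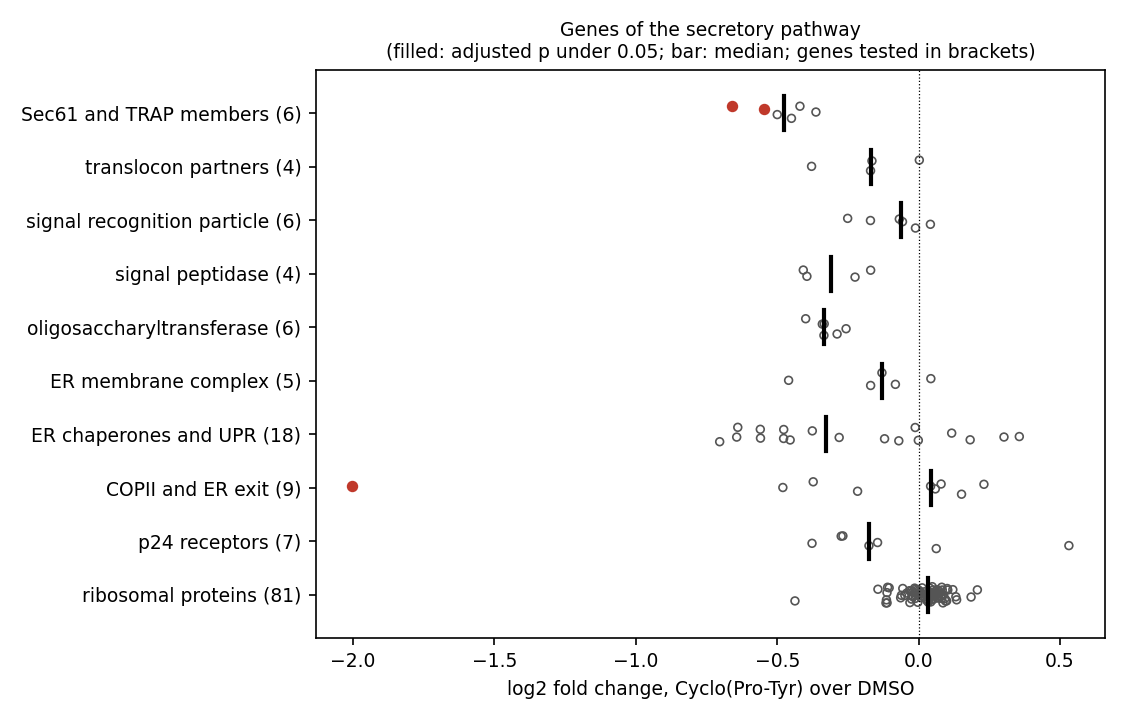
Log2 fold change of Cyclo(Pro-Tyr) over DMSO for the 6 members, for 8 lists of the secretory pathway and for cytosolic ribosomal proteins (points, genes; filled, edgeR adjusted p under 0.05; vertical bars, medians; the dotted line marks 0). Medians are -0.47 for the members, -0.33 for oligosaccharyltransferase, -0.31 for signal peptidase and 0.03 for ribosomal proteins, and *tfg-1* is the lone filled point outside the members.

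Ribosomes dock on the channel, and the cytosolic ribosomal protein genes gave a further list. Their counts in whole worms do not single out ribosomes at the ER membrane. Of 81 tested, 27 lay below 0 and 54 above, with a median of 0.03 (log2) and 0 calls by edgeR, also at an unadjusted p under 0.05. That median ran from -0.08 to 0.15 when single libraries were left out, so its sign depended on single libraries. The median of the 6 members ran from -0.57 to -0.36 in those fits. The members were chosen with their decrease in these libraries known, so setting the 2 ranges side by side is no test.

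Genes of the larval cuticle were counted beside the members. The 142 tested cuticle collagens, which are secreted through this route, lay at a median of -0.60 (log2), with 116 below 0 and 26 above. Of them 8 were called lower and 0 higher, where 1.33% of all genes were called lower. Of all genes 30.8% were lower and 29.6% higher in both treated libraries than in either DMSO library, and of the collagens 91 and 15. Without either DMSO replicate 0 of them were called, while 63 were called lower and 4 higher without Cyclo(Pro-Tyr) replicate 1, and 35 lower and 1 higher without Cyclo(Pro-Tyr) replicate 2. The shares over all genes in those fits were 12.2% lower and 9.56% higher, and 3.38% lower and 1.57% higher. Their summed CPM was 9817 and 8806 in DMSO replicates 1 and 2, and 6029 and 3795 in Cyclo(Pro-Tyr) replicates 1 and 2. The 19 moulting genes, which follow the stage of the larva, had a median of -0.51, with 14 below 0 and 5 above, and 0 called. Beside the 30.8% and 29.6% of all genes, 9 of these moulting genes were lower and 4 higher in both treated libraries. Their summed CPM was 1583 and 2017 in DMSO replicates 1 and 2, and 1567 and 1152 in Cyclo(Pro-Tyr) replicates 1 and 2. The 4 epidermal markers summed to 203 and 226 CPM in DMSO and to 189 and 132 CPM in Cyclo(Pro-Tyr), with *dpy-7*, a cuticle collagen, at -1.37 (log2) and the other 3 between -0.03 and 0.14. Without *dpy-7* the epidermal sum was 119.95 and 123 CPM in DMSO replicates 1 and 2, and 136 and 113 CPM in Cyclo(Pro-Tyr) replicates 1 and 2, so the groups then overlapped. The sum of the collagens was, like that of the members, lower in both treated libraries than in either DMSO library. It was lowest in Cyclo(Pro-Tyr) replicate 2. The moulting sum was also lowest in that library. In Cyclo(Pro-Tyr) replicate 1 it was nearly equal to that in DMSO replicate 1, at 1567 against 1583 CPM. The part of the collagens and moulting genes in the members' difference was not tested.

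The genes whose pattern over the 4 libraries was most like the mean of the 6 members were found by Euclidean distance between centred log2 CPM values, among 10119 other genes of at least 10 CPM. They were T25D10.4, *pfn-3*, *pmp-5*, F37C4.5 and T24H10.4, at distances of 0.015 to 0.030. By the same measure the members themselves lay 0.041 (*trap-1*) to 0.25 (*sec-61.B*) from their own mean. The profilin gene *pfn-3* gave 29.03 and 27.95 CPM in DMSO replicates 1 and 2, and 21.6 and 19.3 CPM in Cyclo(Pro-Tyr) replicates 1 and 2. The likeness rests on 4 libraries.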

How the data were processed

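RNA of whole worms was sequenced in 4 libraries, 2 per group, grouped and numbered by their titles. For the library titled Cyclo(Pro-Tyr) replicate 2 another label reads replicate 1, and the title was used. The values are raw counts per gene, deposited by the authors without normalisation. Bowtie2 and SAMtools are named in the submitters' processing notes. How reads were counted, with which build, annotation and strand setting, is not given in the sources used here, so no coordinates are printed. Symbols came from a RefSeq table of WBcel235 (21890 of 21895 rows matched) and exon lengths and overlaps from Ensembl release 115 (21867 rows matched).

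Differences were tested by the newer quasi-likelihood method of edgeR 4.0.16 (R 4.3.3). Low genes were removed with filterByExpr, which left out 2456 genes. Scaling was by TMM, treatment was the only term, and p-values were adjusted over 19439 genes with a threshold of 0.05. The standard error is the log2 fold change divided by the square root of F. The fit was also run on simulated counts with planted changes larger than those of the members, so that run does not bear on the members' calls. Alternatives were DESeq2 1.42.0 and its size factors, upper-quartile and total-count scaling, 2 other filters, limma-voom (limma 3.58.1), a replicate block and fits without each library. In those last fits a lone library is taken to vary as the pair does. The legacy edgeR method and crossed replicate numbers were added after seeing the data. Figures were drawn with matplotlib 3.10.9.

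The members, the 11 function lists and the tests were chosen with earlier results of these data known. From each secretory list the 3 genes with the smallest p and the gene nearest 0 were named, except 1 gene that is not reported here. Of the ribosomal, collagen and moulting lists the counts, medians and sums are given, without naming genes by that rule. Of 97 single entries on the lists, 11 matched no row or were left out, among them Y54E5B.3, which is *let-49* and had been entered in error, and *emo-1* was matched as *sec-61.G*. Some genes entered the lists by sequence name, and the tables used here give them no function.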

Additional observations from a re-analysis of the deposited data

How the results depend on the processing

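All 6 members kept a log2 fold change below 0 under each of the 14 alternatives, from -0.74 to -0.25, while the median of all genes stayed between -0.04 and 0.03. The number of called members was not as stable. It was 2, as in the report, with DESeq2 size factors, upper-quartile scaling, no filter and limma-voom. It was 1 with total counts, where *trap-3* had an adjusted p of 0.0545, and 1 with the legacy edgeR method, where it had 0.0536. It was 4 with DESeq2's Wald test, which called 1789 of 19439 genes, against 398 in the main edgeR fit. With the filter of at least 5 CPM in 2 libraries, 3736 of 12337 genes and 6 members had an unadjusted p under 0.05 by edgeR. The number of called members was 0 there, with an adjusted p of 0.0729 for *sec-61.B*. It ran from 0 to 6 when single libraries were left out. The cause was not tested.

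Over all genes, edgeR called 398, of which 259 were lower and 139 higher. Upper-quartile scaling gave 842 (477 lower, 365 higher) and total counts 215 (154 lower, 61 higher). DESeq2's Wald test gave 1789 (998 lower, 791 higher). The filter of 5 CPM in 2 libraries gave 0 by edgeR in either direction, with 3736 at an unadjusted p under 0.05. Leaving out single libraries gave 0 to 4299 genes, 0 to 2413 lower and 0 to 1886 higher. The lowest was without DMSO replicate 1, with 3649 at an unadjusted p under 0.05, and the highest without Cyclo(Pro-Tyr) replicate 1.

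Both groups carry replicate numbers 1 and 2, but nothing says that they pair cultures, and the deviations of same-numbered libraries from their group means correlated at -0.20 over genes. With the replicate number as a block, edgeR called 221 genes (175 lower, 46 higher) and 0 members. At an unadjusted p under 0.05 edgeR had 3965 of 19439 genes and 5 of the 6 members in that fit. With the numbers crossed as a block it called 4581 genes (2410 lower, 2171 higher) and 6 members.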

Other observations

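The genes of the ER stress sensors and *xbp-1*, from the list of ER chaperones and the unfolded protein response, are named here after their values were seen. The kinase gene *pek-1*, the worm PERK, averaged 121 ± 1.001 CPM (SD, n = 2 here and below) with DMSO and 154 ± 5.66 CPM with Cyclo(Pro-Tyr). Its fitted log2 fold change was 0.36, at an adjusted p of 0.0854 by edgeR. The transcription factor gene *atf-6* averaged 38.1 ± 0.0688 and 47.0 ± 4.67 CPM, and its fitted log2 fold change was 0.30, at an adjusted p of 0.138 by edgeR. The *ire-1* gene, which overlaps *unc-105* on the opposite strand, had a fitted log2 fold change of 0.12, at an adjusted p of 0.519 by edgeR. The *xbp-1* gene, whose mRNA IRE-1 splices, averaged 667 ± 17.8 and 549 ± 4.44 CPM, and its fitted log2 fold change was -0.28, at an adjusted p of 0.198 by edgeR. None of the 4 passed the threshold.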
